A study of Mus musculus with 18 samples.

Results

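Gt(ROSA)26Sor, Rsl1, Zfp874a, Svopl, Rpgrip1, Dnph1, Ang, Pnrc2 and Cap1 are 9 genes whose array signal differed widely between Tgfbr2 mutant and control palate. They were followed here probe set by probe set and array by array. They are 9 of 18193 measured genes and are read by 17 of 45101 probe sets, taken as every probe set annotated with one of these symbols alone. The members were chosen by their difference between mutant and control posterior arrays, so those values, and the spread among mutant arrays, are given as a description without a test. Tests are given for what did not choose them, which is the comparison of posterior with anterior control palate and the comparison between control arrays of different number.

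Whole palate tissue was taken at embryonic day 15.5 and its RNA was hybridised to 18 1-colour Affymetrix arrays. The 6 control anterior and 6 control posterior samples carried the floxed alleles alone (Tgfbr2 fl/fl), and the 6 mutant posterior samples carried them with K14-Cre (K14-Cre;Tgfbr2 fl/fl). K14-Cre is a recombinase under a keratin promoter that is active in epithelium, so cells of mesenchyme and muscle keep the receptor in this model. All samples are labelled C57BL/6J, and no engineered allele other than the floxed receptor and K14-Cre is named. Mutants and controls came from separate litters according to the design text, so litter and genotype cannot be told apart in any mutant against control value. With 1 strain label for all arrays, no comparison between strains can be made. The design text counts 5 samples in each group, but 6 are labelled, and every labelled sample entered the analysis. Because the labels do not say whether samples are separate embryos or pools, p-values measure only the spread between these samples. In whole tissue, fewer cells of a type and less RNA per cell cannot be told apart.

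The 9 genes do unlike work. The Gt(ROSA)26Sor transcript is a broadly transcribed noncoding RNA whose locus is the usual landing site for reporter and other transgenes in mice, and an insertion there interrupts the transcript. Rsl1 and Zfp874a encode KRAB zinc finger proteins, repressors that recruit a TRIM28 corepressor, from a gene cluster that differs between mouse strains. Rsl1 takes its name from the regulation of sex-limited liver genes. Ang encodes angiogenin, a secreted ribonuclease, and Rpgrip1 a scaffold of the photoreceptor connecting cilium. Dnph1 clears damaged deoxynucleotides, Pnrc2 links RNA surveillance to mRNA decapping, Cap1 recycles actin monomers, and Svopl encodes a predicted transporter related to synaptic vesicle proteins.

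Values are log2 levels, in which a difference of 1 is a doubling, and levels of different probe sets are not set against each other. Array means lay between 6.26 and 6.37 and array medians between 5.74 and 5.90. Arrays also differed within and between groups in their spike-in RNAs. The hybridisation spike-ins averaged 11.4 to 11.9 in mutant arrays 1 to 3 and 10.7 to 10.8 in mutant arrays 4 to 6, while the labelling spike-ins averaged 8.75 to 8.98 in control arrays 1 to 3 and 9.79 to 10.5 in control arrays 4 to 6. The labels name no such sets. Labelling spike-ins also separated the genotypes, at 6.79 to 8.28 in all mutant arrays against 8.75 to 10.5 in all control arrays. Hybridisation spike-ins ran from 10.5 to 11.1 in controls, with mutant arrays 1 to 3 above and 4 to 6 within that range. The part of the spike-in differences in the values of the 9 genes was not tested. Mutant array 1 differed from the other mutant arrays in several marker lists. Its mean was the lowest for 7 epithelial markers (9.40 against 11.4 to 12.1) and for 8 palate mesenchyme markers (8.37 against 9.04 to 10.48). It was the highest for skeletal muscle (12.06 against 9.71 to 11.77), leukocyte (8.95 against 8.05 to 8.52), red cell (10.05 against 7.96 to 8.86) and liver markers (7.45 against 5.44 to 7.31). No epithelial, mesenchyme or muscle marker passed the test between genotypes. Other markers did: the embryonic globin Hbb-y fell by 2.93 (adjusted p = 1.88e-06, limma), the embryonic globin Hba-x fell by 1.40 (adjusted p = 0.00848, limma), and the leukocyte marker Cd52 fell by 1.17 (adjusted p = 9.61e-05, limma). Csf1r, a macrophage marker, rose by 0.53 (adjusted p = 0.0489, limma), the Schwann cell marker Sox10 rose by 0.56 (adjusted p = 0.0307, limma), and all 4 liver markers rose. The part of these shifts in the values of the 9 genes was not tested. The floxed gene, Tgfbr2, differed by 0.55, with higher levels in mutants (SE 0.13, adjusted p = 0.00879, limma), at 10.63 to 11.39 against 10.25 to 10.73 in control posterior arrays. The position of that probe set relative to the deleted part of the gene is not known here and the deletion is aimed at epithelium, so this value checks no label.

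Of the 9 genes, 8 read lower in mutant than in control posterior palate and Cap1 read higher. All 9 are among the genes called between genotypes, as the choice of members requires; 13.5% of all genes were called at an adjusted p under 0.05 (limma), 5.73% lower and 7.73% higher in mutants (1042 and 1407 genes, or 1423 and 889 after each array was centred on its median). The values of 8 genes did not overlap between mutant and control posterior arrays, against 6.55% of all genes. The median difference of the members was -2.21 and that of all genes 0.041. By probe set, 13 of 17 did not overlap between genotypes and 14 of 17 had a lower mean in mutants. The share over all probe sets was not counted, and 4 of the genes supply several probe sets each. Between mutant and control anterior arrays, 8 of the 9 genes again did not overlap, against 9.83% of all genes, but this comparison uses the same mutant arrays. By size, Rsl1 held place 17 among 18193 genes from the most negative difference, and Cap1 place 19 from the most positive.

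**Figure D1:**
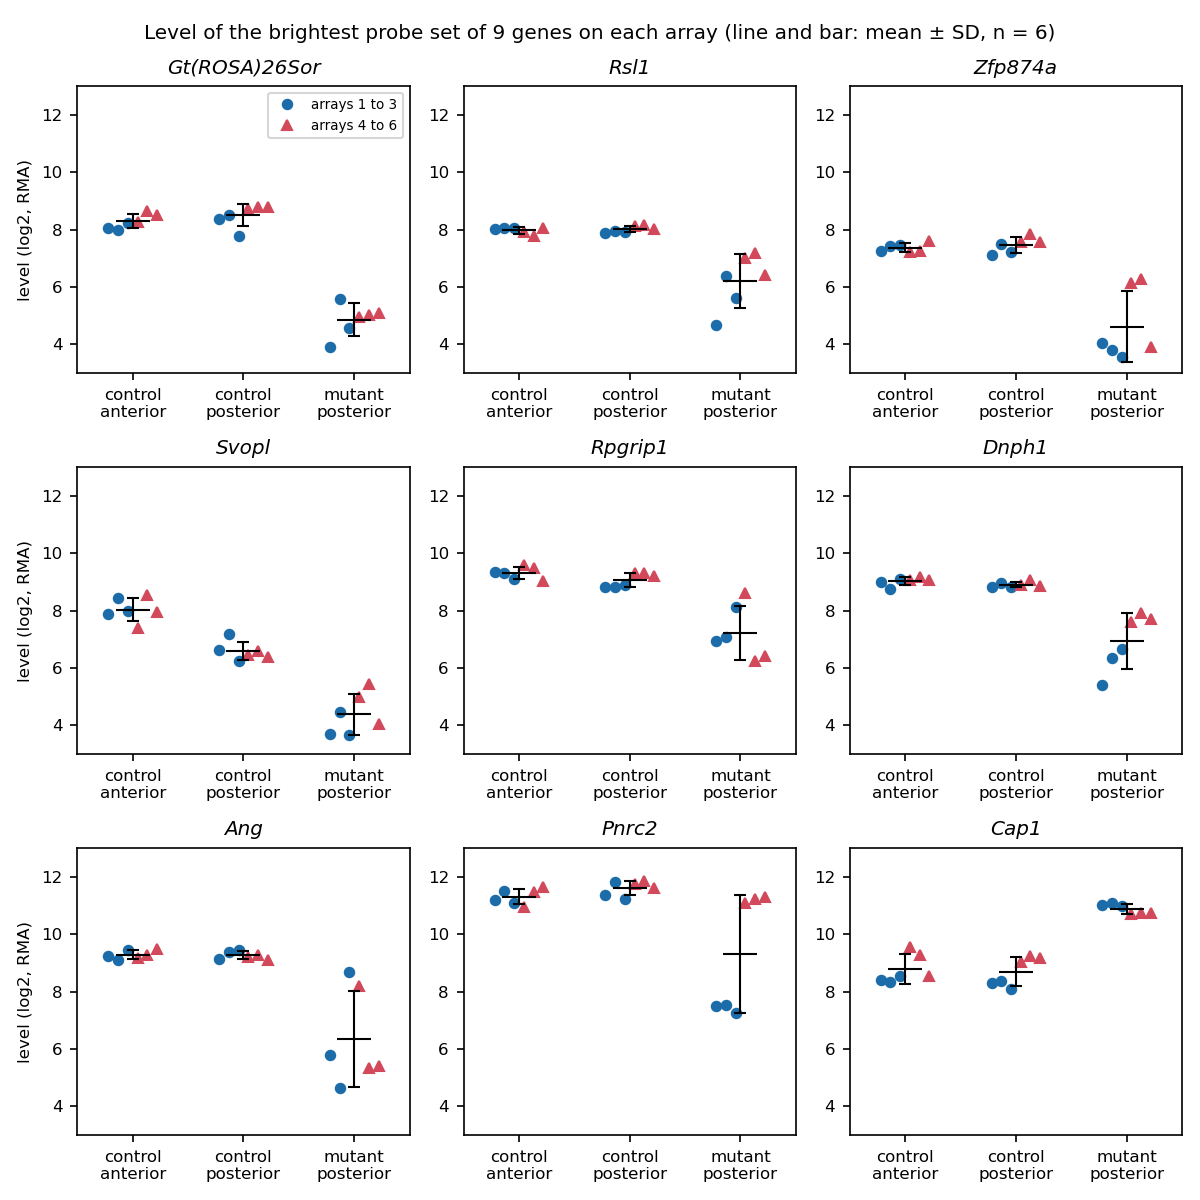
Log2 level of the brightest probe set of each of the 9 genes on each of the 18 arrays, by group, with circles for arrays 1 to 3, triangles for arrays 4 to 6, and the mean ± SD (n = 6) as line and bar. Every mutant array lies below every control posterior array for Gt(ROSA)26Sor, Rsl1, Zfp874a, Svopl, Rpgrip1, Dnph1 and Ang, above for Cap1, and only mutant array 6 reaches the control posterior range for Pnrc2.

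Gt(ROSA)26Sor had the most negative genotype difference of all 18193 genes in the deposited values. Its single probe set, 1452239_at, read 3.90, 5.60, 4.56, 4.96, 5.02 and 5.10 in mutant arrays 1 to 6. Control posterior arrays ran from 7.78 to 8.79 with a median of 8.60, and control anterior arrays from 7.999 to 8.65 with a median of 8.26. The groups were far apart, and all 6 mutant arrays lay below the median level of a probe set on their array. The mutant mean was 4.86 ± 0.57 against 8.49 ± 0.38 in control posterior arrays (SD, n = 6 each), a log2 difference of -3.63. Since a level and background cannot be told apart below the array medians, no fold is given. Mutant array 1 was also the lowest here; without it the difference was -3.44. The difference between posterior and anterior controls did not pass the test (0.20, SE 0.23, adjusted p = 0.670, limma).

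Of the 10 measured genes nearest to this locus, 5 on each side, 1 was called lower and none higher (13.5% of all genes were called), and their median difference was 0.022. The 4 genes listed for this locus, Setd5, Thumpd3, Lhfpl4 and Mtmr14, held no call; Thumpd3 had the smallest p, with a difference of -0.20 (SE 0.12, adjusted p = 0.308, limma). Svopl lies on the same chromosome, 6, with 476 measured genes between.

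Rsl1 and Zfp874a sit in one cluster on chromosome 13 with 5 measured genes between them. Rsl1, read by the probe set 1455292_x_at, was at 4.67, 6.38, 5.60, 7.01, 7.18 and 6.40 in mutant arrays 1 to 6. The control posterior arrays held between 7.90 and 8.16 with a median of 7.997. Mutant values were all lower and far more spread, with an SD of 0.94 against 0.11. The mean difference was -1.81, and -1.50 without mutant array 1. Arrays 1 and 3 lie below the array medians. Against the control posterior mean, arrays 1 to 3 differed by -2.47 and arrays 4 to 6 by -1.15, with array 2 at 6.38 just under array 6 at 6.40. The ending x_at marks a probe set whose probes can bind transcripts of related genes, and relatives are many in this cluster.

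Zfp874a, read by 1434171_at, was at 4.03, 3.79, 3.56, 6.12, 6.28 and 3.91 in mutant arrays 1 to 6. Control posterior arrays ran from 7.10 to 7.85 with a median of 7.53. The mutants formed no continuous spread: arrays 4 and 5 stood apart above the other 4, which lay between 3.56 and 4.03. Their mean was 4.62 ± 1.24 against 7.47 ± 0.27 (SD, n = 6 each), a difference of -2.85. The 4 low mutant values lie below the array medians, where background cannot be told apart, so no fold is given. Neither zinc finger gene passed the test between posterior and anterior controls, with adjusted p = 0.960 for Rsl1 and 0.921 for Zfp874a (limma).

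Some other zinc finger genes of the cluster fell. They are no members, but their list was chosen with earlier results of these data known, so their p-values are no independent test. Of 13 further measured genes in the list for this region, 5 were called lower and 1 higher in mutants, with a median difference of -0.34. Of all genes 5.73% were called lower and 7.73% higher. Zfp708 fell by 1.24 on the log2 scale (SE 0.14, adjusted p = 3.95e-05, limma), reading 5.17 to 6.05 in mutant and 6.80 to 7.21 in control posterior arrays. Zfp429, the neighbour of Zfp874a, fell by 1.19 (SE 0.17, adjusted p = 0.000416, limma). Its mutant arrays 1 to 6 read 5.35, 5.51, 5.55, 6.37, 6.64 and 5.72, highest in arrays 4 and 5 as for Zfp874a, while control posterior arrays held between 6.92 and 7.19. Zfp712 fell by 0.53 (SE 0.11, adjusted p = 0.00461, limma). Zfp874b, next to Zfp874a, had a difference of 0.30 (SE 0.11, adjusted p = 0.0943, limma), which did not pass. Zfp455, between the members, differed by -0.84 without passing either (SE 0.28, adjusted p = 0.0526, limma). Along the cluster, genes that were called lay among genes that did not pass.

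The start regions of Rsl1, Zfp874a and Zfp429 are shown because these 3 genes lie together and read low together; each is 250 bases before to 50 after the gene start in RefSeq (GRCm38.p6). They lie at chr13:67172932-67173231 (+ strand), chr13:67451575-67451874 (- strand) and chr13:67399718-67400017 (- strand). Capitals mark matches, on either strand, to TATAAA (the TATA box), to CCAAT (the CCAAT box) or to GGGCGG (the GC box).
Rsl1: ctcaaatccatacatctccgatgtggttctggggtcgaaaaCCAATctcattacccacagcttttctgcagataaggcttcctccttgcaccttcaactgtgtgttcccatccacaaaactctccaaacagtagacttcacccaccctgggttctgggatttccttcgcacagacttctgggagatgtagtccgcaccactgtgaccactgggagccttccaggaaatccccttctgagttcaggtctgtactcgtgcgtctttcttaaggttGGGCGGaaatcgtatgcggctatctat
Zfp874a: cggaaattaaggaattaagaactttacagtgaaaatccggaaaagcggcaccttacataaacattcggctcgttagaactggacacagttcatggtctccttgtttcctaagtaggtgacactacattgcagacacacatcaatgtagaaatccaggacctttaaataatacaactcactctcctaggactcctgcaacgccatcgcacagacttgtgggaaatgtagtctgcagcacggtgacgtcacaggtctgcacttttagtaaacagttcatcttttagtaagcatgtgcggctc
Zfp429: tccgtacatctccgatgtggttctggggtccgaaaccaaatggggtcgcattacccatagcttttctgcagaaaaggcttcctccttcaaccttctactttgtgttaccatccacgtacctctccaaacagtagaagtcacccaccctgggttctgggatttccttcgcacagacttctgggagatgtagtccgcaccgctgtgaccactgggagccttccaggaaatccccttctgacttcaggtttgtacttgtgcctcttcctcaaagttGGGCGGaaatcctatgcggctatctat
Rsl1 and Zfp429 matched at 87.9% of positions of a pairwise alignment of these windows, gaps included, Rsl1 and Zfp874a 52.5%, and Zfp874a and Zfp874b 77.6%. Among 32817 windows of this length, 13.6% hold TATAAA, 37.4% CCAAT and 35.6% GGGCGG. The Rsl1 window has 1 CCAAT and 1 GGGCGG match, the Zfp429 window 1 GGGCGG match, and the Zfp874a window none of the 3.

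Of 9 genes of the KRAB corepressor machinery on which these repressors act, 1 was called higher and 1 lower in mutants. Dnmt1, the maintenance DNA methyltransferase, rose by 0.48 (SE 0.10, adjusted p = 0.00516, limma). Morc3 fell by 0.33 (SE 0.11, adjusted p = 0.0471, limma), a call that ended in 22 of 31 alternatives. None of 4 measured liver genes reported as targets of Rsl repressors passed the test; Cyp2d9 came nearest with -0.12 (adjusted p = 0.378, limma). All 4 read below the array medians in the control posterior means, between 3.34 and 5.59, so background cannot be told apart from low expression there.

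Ang and Rpgrip1 lie on chromosome 14 with 14 measured genes between them, and the same mutant arrays stood high for both. Ang is read by 3 probe sets. The brightest, 1438936_s_at, read 5.80, 4.63, 8.67, 8.20, 5.32 and 5.40 in mutant arrays 1 to 6. Arrays 3 and 4 came close to the control posterior range of 9.10 to 9.46, while the other 4 lay more than 3 log2 units below it. The mutant mean was 6.34 ± 1.67 against 9.26 ± 0.14 (SD, n = 6 each), a difference of -2.93.

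The other Ang probe sets did not share one pattern. 1438937_x_at repeated the first, with 3.23, 3.88, 6.999, 6.74, 3.93 and 4.00 in mutant arrays 1 to 6 and 7.70 to 8.11 in control posterior arrays. By its x_at ending, its probes too can bind transcripts of related genes. 1450717_at read 4.72, 5.07, 4.60, 5.94, 5.13 and 5.09 in mutant and 6.30 to 6.76 in control posterior arrays. In this probe set array 4 was again the highest mutant, but array 3 was the lowest. The mutant against control differences were -3.10 and -1.44. All 3 probe sets read lower in every mutant than in every control posterior array, and they disagreed on array 3. On 1450717_at every mutant array but array 4 lay below the array medians, and on 1438937_x_at every one but arrays 3 and 4. On 1438936_s_at arrays 2, 5 and 6 did. A level and background cannot be told apart there, so the sizes and the disagreement on array 3 rest partly on such values.

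Rpgrip1 has 4 probe sets, and only 1 separated the groups. 1421144_at read 6.94, 7.09, 8.11, 8.60, 6.24 and 6.40 in mutant arrays 1 to 6 and 8.83 to 9.30 in control posterior arrays. Arrays 3 and 4 were again the highest mutants. The difference was -1.83, or 3.55-fold. The other probe sets, 1431357_a_at, 1454231_a_at and 1451785_at, differed by 0.040, -0.068 and -0.026 and overlapped between groups. Their control posterior means of 4.22, 3.91 and 2.98 lay below every array median, where a level and background cannot be told apart. Averaging the 4 probe sets gave -0.47. Photoreceptor markers Crx, Rcvrn and Pde6b together averaged between 3.93 and 4.55 on all 18 arrays and held no call.

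**Figure D2:**
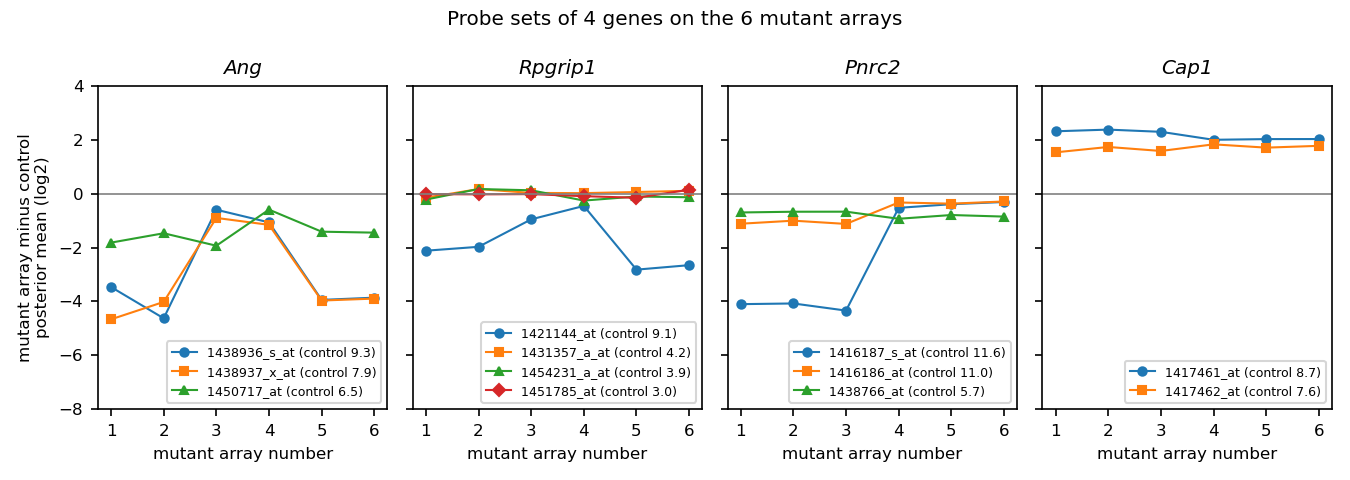
Log2 difference of each mutant array from the control posterior mean for every probe set of Ang, Rpgrip1, Pnrc2 and Cap1, the 4 genes with several, with the control posterior mean in the key; lines join the values of 1 probe set and the arrays have no order. Ang 1438936_s_at and 1438937_x_at rise together at arrays 3 and 4, 3 of 4 Rpgrip1 probe sets stay near 0, and 2 of 3 Pnrc2 probe sets step between arrays 1 to 3 and 4 to 6.

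Rnase4, the gene beside Ang, shares an annotated start region with it. Its table entry has 2 windows, and 1 of them is identical to the Ang window. Rnase4 read 10.82, 10.78, 10.50, 10.97, 11.25 and 11.19 in mutant arrays and 10.38 to 10.81 in control posterior arrays. The mutant arrays with the lowest Ang signal were not low for Rnase4. It rose by 0.36 (SE 0.11, adjusted p = 0.0405, limma), but the call ended in 17 of 31 alternatives. Rnase4 was the 1 call among 6 measured RNase A relatives of Ang. Of 4 genes for the angiogenin inhibitor and receptors none was called, and Plxnb2, a receptor, came nearest with 0.23 (SE 0.10, adjusted p = 0.130, limma). Among the 8 measured partners of Rpgrip1 at the ciliary transition zone, 1 was called, Iqcb1, which fell by 0.33 (SE 0.09, adjusted p = 0.0253, limma) and lost the call in 7 of 31 alternatives.

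The start regions of both chromosome 14 genes are shown because the 2 genes were high on the same mutant arrays while Rnase4, with which Ang shares 1 annotated start, was not. The start from which the Rnase4 signal comes is not known here. In GRCm38.p6 (RefSeq) they lie at chr14:51090827-51091126 and chr14:52110653-52110952, both on the + strand. Capitals mark the same 3 motifs.
Ang, also the first Rnase4 window: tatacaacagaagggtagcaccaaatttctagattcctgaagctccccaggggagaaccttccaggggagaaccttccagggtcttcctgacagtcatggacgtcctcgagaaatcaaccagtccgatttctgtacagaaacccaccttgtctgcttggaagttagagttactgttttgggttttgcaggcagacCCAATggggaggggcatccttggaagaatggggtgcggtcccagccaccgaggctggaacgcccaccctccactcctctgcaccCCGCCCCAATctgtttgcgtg
Rpgrip1: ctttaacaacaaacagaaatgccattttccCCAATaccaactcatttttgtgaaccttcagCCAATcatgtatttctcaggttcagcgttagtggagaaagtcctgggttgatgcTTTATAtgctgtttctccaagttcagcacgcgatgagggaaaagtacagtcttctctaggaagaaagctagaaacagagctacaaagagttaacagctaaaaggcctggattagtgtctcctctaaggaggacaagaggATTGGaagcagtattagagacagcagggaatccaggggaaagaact
The Ang window has 2 CCAAT matches and 1 GGGCGG match. The Rpgrip1 window has 3 CCAAT matches and 1 TATAAA match.

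Ang is also made in liver, and the mean of the 4 liver markers ran from 5.44 to 7.45 over mutant arrays against 5.29 to 5.52 in control posterior arrays. Afp rose by 2.74 (SE 0.51, adjusted p = 0.00221, limma). The part of the liver signal in the Ang values was not tested.

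Svopl was the only member that differed between anterior and posterior control palate. Its single probe set is 1457352_x_at, whose probes can bind transcripts of related genes, as for Rsl1. It read 7.39 to 8.52 in anterior controls, median 7.96, and 6.25 to 7.18 in posterior controls, median 6.52. The control groups did not overlap, and posterior minus anterior palate gave -1.44 (SE 0.27, adjusted p = 0.00493, limma). Across the series 3.82% of genes were called by region, and 1 of the 9 members. The call held in all 26 alternatives that gave a value, with adjusted p from 0.000327 to 0.0160; with the replicate number as a block it was 0.00411. Skeletal muscle markers also differed by region, 6 of 6 higher in posterior palate, with a list mean of 9.88 to 10.99 against 5.84 to 8.17, and 2 of 8 palate mesenchyme markers and 1 of 5 leukocyte markers (C1qa, 0.60, adjusted p = 0.00480, limma) were called. Their part in the Svopl difference was not tested.

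In mutants Svopl was lower still. Mutant arrays 1 to 6 read 3.69, 4.47, 3.67, 4.98, 5.43 and 4.03, all below the array medians and below every control of either region. The mean of 4.38 ± 0.72 (SD, n = 6) differed by -2.21 from posterior and by -3.65 from anterior controls, and no fold is given because all mutant values lie below the array medians. The first difference shares the posterior controls with the region test and the second shares the anterior controls, so the 2 are given side by side only. Among related transporters, 1 of 4 was called: Sv2b rose by 0.62 (SE 0.19, adjusted p = 0.0335, limma), a call that ended in 11 of 30 alternatives.

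The other 8 members gave no region call. Their adjusted p-values lay between 0.670 for Gt(ROSA)26Sor and 0.989 for Ang, and the median region difference of the 9 members was -0.019 beside -0.017 for all genes. These p-values do not show that the regions were equal. The error of this test also took in the spread among mutant arrays. For Pnrc2 the SE was 0.64, with SDs of 0.27 and 0.25 in anterior and posterior controls and 2.07 in mutants. With only the 2 control groups in the fit, 2151 genes were called by region, and still 1 member, Svopl.

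Dnph1 was low in every mutant array and lowest in arrays 1 to 3. 1460713_at, its single probe set, read 5.40, 6.33, 6.66, 7.62, 7.92 and 7.72 in mutant arrays 1 to 6. Control posterior arrays were tight, from 8.82 to 9.07 with a median of 8.87. The mutant mean was 6.94 ± 0.98 against 8.90 ± 0.09 (SD, n = 6 each), a difference of -1.96, and -1.65 without mutant array 1, which lies below its array median. From the control posterior mean, arrays 1 to 3 differed by -2.77 and arrays 4 to 6 by -1.15.

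Of 10 other measured genes in the list for nucleotide pool sanitation, 4 were called lower and none higher in mutants, against 5.73% and 7.73% of all genes. Their median difference was -0.32. One of the 4 called genes was Parp1, a poly(ADP-ribose) polymerase that acts in DNA repair rather than on the pool, with -0.57 (SE 0.15, adjusted p = 0.0209, limma). Dut, which hydrolyses dUTP, fell by 0.77 (SE 0.10, adjusted p = 0.000127, limma). Dctd, the dCMP deaminase, fell by 0.71 (SE 0.12, adjusted p = 0.00117, limma), and both calls held in all alternatives. Dck, the deoxycytidine kinase, fell by 0.77 (SE 0.19, adjusted p = 0.0134, limma). Dut read 10.28 in the mean of mutant arrays 1 to 3 and 10.71 in that of arrays 4 to 6, lower in arrays 1 to 3 like Dnph1. Dctd, Dck, Parp1 and Samhd1 also read lower in arrays 1 to 3. Dctpp1 (10.74 against 9.73), Itpa (10.44 against 9.93), Nudt1, Nudt5 and Tk1 read higher there, so the list had no single direction.

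Pnrc2 divided the mutants more than any other gene. Its brightest probe set, 1416187_s_at, read 7.50, 7.52 and 7.26 in mutant arrays 1 to 3 and 11.07, 11.21 and 11.29 in mutant arrays 4 to 6. The gap of 3.77 between the means was the largest of all 18193 genes in size. Control posterior arrays ran from 11.23 to 11.85, median 11.66, and control anterior arrays from 10.96 to 11.63, median 11.33. Arrays 1 to 3 thus differed from the control posterior mean by -4.17 and arrays 4 to 6 by -0.41, and only array 6 reached the control posterior range. The mean difference of -2.29 describes neither set, and it became -1.25 with the mean of the 3 probe sets and -1.10 with array weights.

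The other Pnrc2 probe sets told this differently. 1416186_at stepped in the same direction by less, with 9.84, 9.96 and 9.84 in mutant arrays 1 to 3 and 10.63, 10.59 and 10.67 in arrays 4 to 6, against 10.69 to 11.16 in control posterior arrays. 1438766_at read 5.03, 5.05, 5.05, 4.79, 4.93 and 4.87 in mutants against 5.56 to 5.93, a difference of -0.77 that was of like size in both sets and slightly larger in arrays 4 to 6. Every mutant array was below the control posterior range in these 2 probe sets. The 3 probe sets therefore share a lower mutant level and disagree on its size by array. Whether they bind different transcripts or allelic sequences was not tested.

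Srsf10, a splicing factor next to Pnrc2 and picked with its values known, also fell, by 0.76 (SE 0.12, adjusted p = 0.000834, limma). It read 9.35, 9.29 and 9.50 in mutant arrays 1 to 3 and 10.003, 9.96 and 10.04 in arrays 4 to 6, against 10.40 to 10.55 in control posterior arrays. The other called neighbour of Pnrc2, Eloa, went the other way and rose by 0.85 (SE 0.07, adjusted p = 1.45e-06, limma). The decapping and decay genes gave 1 higher and 1 lower call of 11. Pnrc1, the paralog of Pnrc2, fell by 0.39 (SE 0.12, adjusted p = 0.0320, limma) and Edc4, a decapping scaffold, rose by 0.26 (SE 0.07, adjusted p = 0.0259, limma). These calls ended in 12 and 9 of 31 alternatives.

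Cap1 was the single member that read higher in mutants. 1417461_at read 11.01, 11.08, 10.99, 10.70, 10.72 and 10.73 in mutant arrays 1 to 6. Control posterior arrays ran from 8.08 to 9.23 with a median of 8.70. The mutants were tight and the controls spread, with SDs of 0.17 and 0.51. The mean difference was 2.18, or 4.52-fold. The second probe set, 1417462_at, read 9.17 to 9.47 in mutants and 6.75 to 8.52 in control posterior arrays, a difference of 1.70.

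Control Cap1 levels were higher in arrays 4 to 6 than in arrays 1 to 3, with 1 exception. Posterior control arrays 1 to 3 averaged 8.24 and arrays 4 to 6 averaged 9.15, without overlap. In anterior controls the means were 8.43 and 9.13, but array 6, at 8.56, lay level with arrays 1 to 3 (8.33 to 8.54), and on the second probe set it was the lowest anterior value, at 7.06. The difference averaged over regions was 0.80 (SE 0.13, adjusted p = 0.0298, limma), the only call among the 9 members, while 0.346% of all genes were called in this comparison. It was lost in 12 of 19 alternatives, with adjusted p from 7.29e-05 to 0.254, among them each region alone (0.171 in posterior and 0.254 in anterior controls) and a random block for the replicate number (0.114). It was also lost without any 1 of the 6 posterior controls and without anterior control 2 or 5. The second Cap1 probe set gave 0.83 (adjusted p = 0.0335 over all probe sets, limma). Labelling spike-ins differed between the same arrays, and their part was not tested. Taking control arrays 1 to 3 or 4 to 6 alone as the reference gave genotype differences of 2.63 and 1.72. For Gt(ROSA)26Sor the control sets differed by 0.45 (SE 0.21, adjusted p = 0.327, limma), which did not pass.

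Partners of Cap1 in actin turnover gave 1 higher and 2 lower calls of 11. Pfn1, profilin, rose by 0.32 (SE 0.10, adjusted p = 0.0482, limma), a call that ended in 21 of 31 alternatives. Dstn and Cfl1, which sever actin filaments, fell by 0.26 (SE 0.07, adjusted p = 0.0191, limma) and 0.23 (SE 0.06, adjusted p = 0.0195, limma). The Cfl1 direction flipped to 0.048 (adjusted p = 0.672, limma) when all its probe sets were averaged. Cap2, the paralog, differed by 0.56 without passing (SE 0.27, adjusted p = 0.184, limma). Ppt1, next to Cap1 and also picked with its values known, rose by 0.73 (SE 0.08, adjusted p = 4.04e-05, limma). The other called neighbour of Cap1, Mycl, went the other way and fell by 0.95 (SE 0.28, adjusted p = 0.0315, limma).

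Treating mutants and controls 1 to 3 and 4 to 6 as 4 sets in a random block ended 10 of the calls on related genes named above: Rnase4, Sv2b, Iqcb1, Morc3, Pnrc1, Edc4, Pfn1, Dstn, Cfl1 and Dck. Their adjusted p-values then lay between 0.0634 for Dck and 0.251 for Pfn1 (limma). Those of Zfp708, Zfp429, Zfp712, Dnmt1, Dut and Dctd passed there. The calls on Parp1, Eloa, Ppt1, Mycl, Tgfbr2 and the cell type markers were not followed in any alternative.

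Set side by side, the mutant arrays fall into different orders for different members. Rsl1, Dnph1, Pnrc2 and Cap1 had no overlap between mutant arrays 1 to 3 and 4 to 6, which is 4 of 9 genes against 31.1% of all genes. By probe set it was 7 of 17, with no share over all probe sets counted. Rsl1, Dnph1 and Pnrc2 read lower in arrays 1 to 3 and Cap1 higher. Palate mesenchyme markers split without overlap too, with list means of 8.37, 9.12 and 9.04 in mutant arrays 1 to 3 and 9.60, 10.14 and 10.48 in arrays 4 to 6, against 9.74 to 10.01 in control posterior arrays. Their part in these splits was not tested. Zfp874a and Svopl had their highest mutant values in arrays 4 and 5, Ang and Rpgrip1 theirs in arrays 3 and 4, and Gt(ROSA)26Sor its highest in array 2. By brightest probe set, array 1 was the lowest mutant for Gt(ROSA)26Sor, Rsl1 and Dnph1. All mutant arrays were below the control posterior range for all 8 lower members, except array 6, which reached it for Pnrc2.

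**Figure D3:**
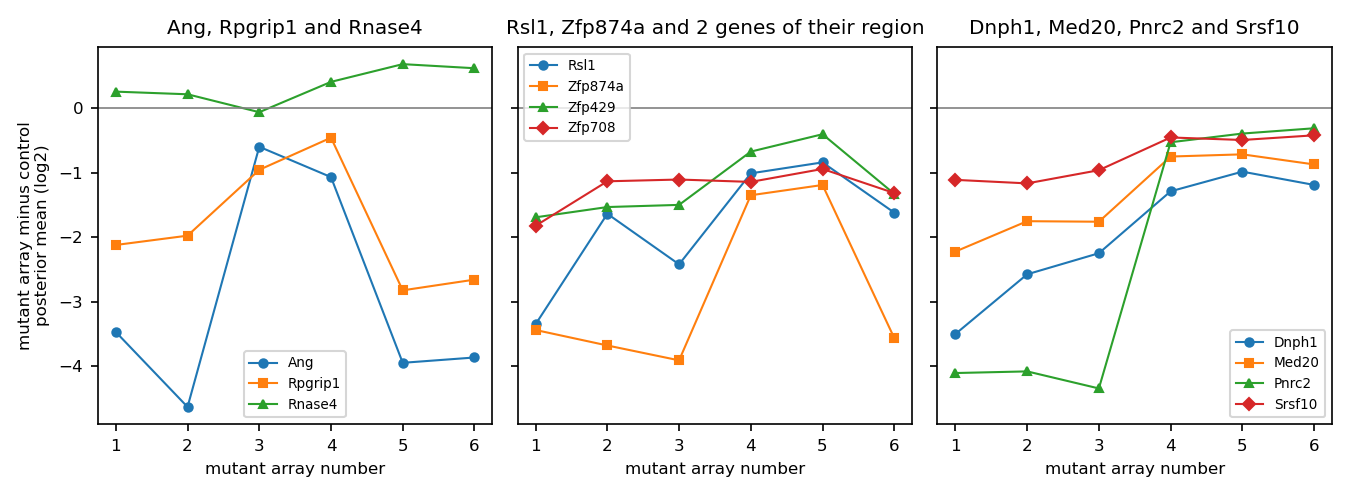
Log2 difference of each mutant array from the control posterior mean for the members Ang, Rpgrip1, Rsl1, Zfp874a, Dnph1 and Pnrc2 and for Rnase4, Zfp429, Zfp708, Med20 and Srsf10; lines join the values of 1 gene and the arrays have no order. Zfp429 is high in arrays 4 and 5 like Zfp874a, Rpgrip1 is high in arrays 3 and 4 like Ang, and Rnase4 stays above 0 in all but 1 array.

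For each member the 2 genes with the most similar levels over all 18 arrays were found by Pearson r, which is largely set by the difference between mutants and controls. Zfp874a was most like its neighbour Zfp429 (r = 0.980), and Ang and Rpgrip1 were most like each other (r = 0.938). Dnph1 was most like Med20 (r = 0.987), a Mediator subunit that lies on the same chromosome, 17, with 28 measured genes between. Med20 fell by 1.34 (SE 0.20, adjusted p = 0.000555, limma), and read 7.56, 8.03 and 8.02 in mutant arrays 1 to 3 and 9.03, 9.07 and 8.91 in arrays 4 to 6. The second gene for Dnph1 was Kdf1 (r = 0.973), an epithelial differentiation factor on chromosome 4, at 5.23 to 5.99 in mutant arrays 1 to 3 and 7.64 to 8.10 in arrays 4 to 6.

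The remaining likenesses crossed chromosomes. Gt(ROSA)26Sor was most like Ska1 (r = 0.972) and Zfp748 (r = 0.968), Rsl1 was most like Dut (r = 0.974) and Med20 (r = 0.970), and Pnrc2 was most like Ppp1cb (r = 0.991) and Abtb2 (r = 0.990). Cap1 was most like Pi4kb (r = 0.977) and Thg1l (r = 0.953), and Svopl most like Ubxn2b (r = 0.949) and Rnf180 (r = 0.947). Second to Zfp429 for Zfp874a came Timm9 (r = 0.957). After each other, Rpgrip1 was most like Mterf2 (r = 0.905) and Ang most like Paxbp1 (r = 0.901). Of these 18 entries, 4 lay on the member's own chromosome.

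The 5 measured genes on each side of the 9 members, 85 different genes in all, held 17 calls, 9 lower and 8 higher in mutants. Of all genes 13.5% were called, 5.73% lower and 7.73% higher. Only Zfp708 and Zfp429, both in the zinc finger cluster, were called with a difference of 1 or more in size. Neighbours of Rsl1 and of Zfp874a gave 3 lower calls each and none higher, with Zfp429 counted for both. Around Svopl, Rpgrip1 and Dnph1 no neighbour was called lower, and 1, 2 and 2 were called higher. Around Ang, Pnrc2 and Cap1 each count was 1 lower and 1 higher. For comparison, the 10 neighbours of Tgfbr2, the gene with the engineered allele, held 1 lower and 2 higher calls, with Gadl1 up by 1.21 (SE 0.24, adjusted p = 0.00403, limma).

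**Figure D4:**
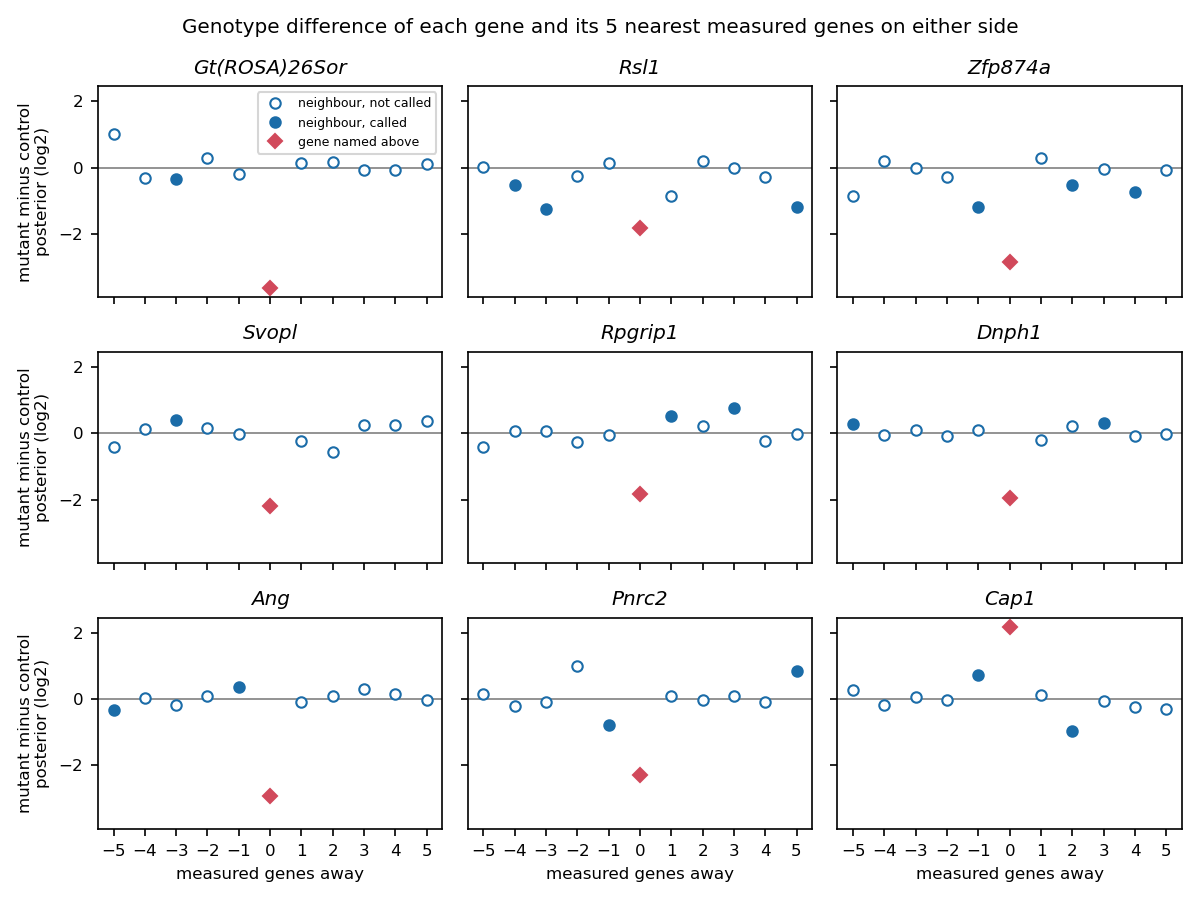
Genotype difference (log2, mutant minus control posterior mean) of each member and of the 5 measured genes on either side, by rank along the chromosome; filled circles are called neighbours, open circles are not called, and diamonds are the members. The members stand out from nearly all neighbours, as their choice by this difference requires, and low neighbours below -1 appear only beside Rsl1 and Zfp874a.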

How the data were processed

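The deposited values are log2 levels. Per the submitters' processing notes the authors made them with RMA, which corrects background, equalises the distribution of all arrays and summarises each probe set; no version is given. A shift shared by most genes is thereby removed, and array number limits the precision. Scanner files, detection calls and probe sequences were not used here.

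The platform annotation gave 1 symbol for 34945 probe sets, several for 932 and none for 9160; 64 control probe sets were left out. The brightest probe set over 18 arrays stood for each of 18193 genes, with no filter on dim genes; 18032 matched RefSeq, and 0 symbols changed. RefSeq order (GRCm38.p6) served for neighbours only, since the array names no build. Start windows were matched for 8 of 9 members.

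Tests used limma 3.58.1 (statmod 1.5.0, R 4.3.3), 2-sided, in 1 fit over 3 groups with 15 residual degrees of freedom. Calls were made where p, adjusted over all genes by Benjamini and Hochberg, was under 0.05. Control arrays 4 to 6 were compared with 1 to 3 in a fit of 3 groups by 2 sets, with 12 residual degrees of freedom. The spread among mutant arrays entered the error of both fits, also in tests between controls. The fits were tested on simulated data. Figures used matplotlib 3.10.9 in Python 3.11.15.

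Members and lists were chosen with earlier results of these data known. Named were the members, up to 3 called genes per list with the largest difference (or the smallest p where none was called), neighbours called at 1 or more on the log2 scale, and the 2 most similar genes per member. Zfp874b, Zfp455, Cap2, Parp1, Srsf10, Ppt1 and the cell type markers were named outside this rule, with their values known. So were Eloa, Mycl, Samhd1, Dctpp1, Itpa, Nudt1, Nudt5 and Tk1. Alternatives were other probe set choices, a filter on dim genes, median centring, other variance models, array weights, blocks, subsets of arrays and leaving out each array.

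Pairing was checked on deviations from group means. For equal numbers, anterior and posterior controls correlated at 0.111 to 0.430 across genes, each of 6 pairs over 0.1. On the data and not the labels, the number was therefore used as a block, but only in alternatives. The main fits used no pairing. No value is given for unequal numbers, so a difference shared by low and high array numbers in both regions was not told apart from pairing.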

Additional observations from a re-analysis of the deposited data

How the results depend on the processing

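All 9 members kept the direction of their genotype difference in every alternative that gave them a value. They were chosen for large differences in this comparison, so the kept direction is no test of them. Each was read by its brightest probe set or the mean of its probe sets, and Rpgrip1 1431357_a_at alone differed by 0.040. Gt(ROSA)26Sor, Zfp874a and Svopl had no value under the filter on dim genes. Values that moved were Rpgrip1 (-0.47 with the mean of its probe sets), Pnrc2 (-1.25 likewise and -1.10 with array weights), Zfp874a and Dnph1 (-2.07 and -1.38 with array weights), and the differences by arrays 1 to 3 and 4 to 6 in the report. Cfl1 turned to 0.048 with the mean of probe sets.

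The 2449 genotype calls became 4835 over every probe set, 588 with 4 sets as a random block, 1572 with only the 2 groups compared, 4986 with mutant arrays 1 to 3 alone, 135 with control arrays 1 to 3 and 1008 with control arrays 4 to 6 alone, and 1512 to 2735 without 1 array, lowest without control posterior array 5 and at 1592 without array 4. Median centring gave 1423 lower and 889 higher calls against 1042 and 1407. The 695 region calls became 3356 with array weights, 1322 with 4 sets as a random block, 2151 with the 2 groups alone and 389 to 1213 without 1 array (442 and 458 without anterior control 1 and 3, 450, 437 and 389 without posterior control 2, 4 and 6, and 1213 without mutant 1). A filter on dim genes left Svopl untested, so 0 members were called by region. The 63 calls between control sets became 3 with the mean of probe sets, 207 with the dim filter, 19 with median centring, 110 with trend and robust, 4 with a random replicate block, 0 in anterior or posterior controls alone (limma; 1738 and 1397 genes at an unadjusted p under 0.05), and 0 to 169 without 1 array. The member call there, Cap1, went from 1 to 0 with the mean of probe sets, the random replicate block and each region alone, and was 0 or 1 without 1 array. These causes were not tested.

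With the replicate number as a block, 677 genes were called by region and 2495 by genotype. Mutant and control posterior arrays of equal number correlated at -0.222 to 0.157, over 0.1 in 2 of 6 pairs. By the design text they came from separate litters. Levels below the array medians may be background.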
